A study of Homo sapiens with 14 samples.

Results

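FLI1 regions that touch H3K9me3, the histone mark of constitutive heterochromatin, were examined in TC-32, an established Ewing sarcoma cell line that carries the EWSR1::FLI1 fusion. A region was taken when its row in the FLI1 list of set A replicate 2, on the 22 autosomes or X, overlapped a FLI1 row of set A replicate 1 and, by at least 1 bp, an H3K9me3 row of either replicate. The rule found 663 of the 28573 FLI1 regions shared by both set A replicates, or 2.32%, among 40590 rows in the replicate 2 list and 143360 FLI1 rows in all 4 FLI1 lists. The overlap, and with it the set A FLI1 rows and both H3K9me3 lists, chose these regions, so values from those lists are given as a description. The set B FLI1 lists, H3K27ac, H3K27me3 and the DNA sequence were not used in the choice.

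All 14 libraries are CUT&RUN of TC-32 cells, labelled WT and without treatment, a method in which a nuclease tethered to an antibody releases the DNA beside its target. FLI1 was profiled with 2 replicates in set A and 2 in set B, H3K27ac with 2 in set A, and H3K9me3 and H3K27me3 with 2 each in set B. Each set has 2 IgG controls, and what the set letters stand for is not stated. The deposited lists were called per library against IgG, and nothing in them separates the fusion from other protein that the FLI1 antibody binds. As a check of the labels, FLI1 rows lay within 10 kb of NR0B1, NKX2-2 and CCND1, which EWSR1::FLI1 is known to bind, in all 4 FLI1 libraries. Nothing states that replicates are separate cultures, and with 2 libraries a group an exact sign-flip permutation test cannot go below p = 0.5, so no p-value is given. Intervals are 95% Wilson intervals and cover counting error only, and the number of reads behind each row is unknown.

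EWSR1::FLI1 keeps the ETS DNA-binding domain of FLI1, which reads the core GGAA. In Ewing sarcoma it also binds microsatellites made of GGAA repeated head to tail, where it opens chromatin and forms enhancers, an ability that wild-type ETS factors largely lack. H3K9me3 is laid down by SETDB1 and the SUV39H enzymes, is read by HP1 proteins, and is known for covering satellites, transposons and the clusters of KRAB zinc finger genes, where TRIM28 recruits SETDB1.

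The sequences below carry the contrast among these regions. They show a GGAA microsatellite at a region with its summit outside the mark, a microsatellite inside it and a minisatellite inside it. The last 3 are sites without a GGAA run or short tandem repeat. Whether these hold a transposon could not be read, since the hg38 copy had no repeat annotation. They were read from hg38, plus strand, and capitals mark GGAA or its reverse complement TTCC, in runs of 2 or more for the microsatellites and singly for the others. Each is named by the nearest protein-coding start.
ARG1, chr6:131383690-131383781, summit outside the mark: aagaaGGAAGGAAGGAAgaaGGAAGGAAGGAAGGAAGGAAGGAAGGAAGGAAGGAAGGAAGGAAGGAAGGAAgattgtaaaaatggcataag
ETV1, chr7:13849688-13849775, summit outside the mark: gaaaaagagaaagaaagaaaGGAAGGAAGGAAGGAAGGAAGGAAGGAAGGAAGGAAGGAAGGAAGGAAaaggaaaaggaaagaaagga
CCDC171, chr9:15882975-15883038, summit outside the mark: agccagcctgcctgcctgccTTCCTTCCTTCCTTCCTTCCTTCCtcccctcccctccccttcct
PROKR1, chr2:68621685-68621776, summit inside the mark: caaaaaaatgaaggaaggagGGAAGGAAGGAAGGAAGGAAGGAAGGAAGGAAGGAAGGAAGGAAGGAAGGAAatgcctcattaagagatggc
FRMD1, chr6:168168673-168168792, summit inside the mark: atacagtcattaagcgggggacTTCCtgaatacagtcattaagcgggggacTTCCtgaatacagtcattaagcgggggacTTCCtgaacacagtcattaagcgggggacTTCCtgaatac
PCSK6, chr15:101334453-101334572, summit inside the mark: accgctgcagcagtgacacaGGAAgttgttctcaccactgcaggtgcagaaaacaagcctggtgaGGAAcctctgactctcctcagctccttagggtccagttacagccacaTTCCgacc
BCAT1, chr12:24803734-24803853, summit inside the mark: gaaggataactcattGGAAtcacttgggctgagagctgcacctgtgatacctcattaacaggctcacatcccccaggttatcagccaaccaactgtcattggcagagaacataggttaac
ZNF300, chr5:150905043-150905162, zinc finger gene start: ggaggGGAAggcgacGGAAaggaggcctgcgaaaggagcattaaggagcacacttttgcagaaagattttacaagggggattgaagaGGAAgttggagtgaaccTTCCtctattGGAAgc

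The regions differed by where the FLI1 summit lay. The summit was inside the mark, taken as the union of both H3K9me3 lists, in 319 of 663 regions, or 48.1% (interval 44.3 to 51.9). The 319 were narrow and weak, with a median width of 590 bp and a median fold of 6.32 over IgG, and the 344 with the summit outside had a median width of 2066 bp and a median fold of 20.8. A GGAA run, here at least 4 units head to tail with a base within 250 bp of the summit, was present in 127 of 663 regions, or 19.2% (interval 16.3 to 22.3), against 5.15% of all shared regions. Such a run can lie beyond the end of the region that is said to hold it. Of the 127, 105 had the summit outside the mark and 22 inside. The 206 regions with the summit outside and over 500 bp from the mark were the widest, with a median width of 4296 bp. Their median fold was 49.8, and 44.2% of them held a run. Their width follows in part from the rule, since such a region must extend over 500 bp past its summit to touch the mark. How far fold and run share go with that width was not tested. The 187 with the summit inside and over 500 bp from an edge had a median width of 590 bp and a median fold of 6, and 5.88% held a run. Between these, 132 summits lay inside and 138 outside within 500 bp of an edge.

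By the shape of the overlap, 365 regions had 1 end in the mark, 221 lay wholly inside it, 57 held a block of the mark within them and 20 had both ends in it. The 20 regions with the mark at both ends had the highest median fold of these shapes, 85.7. Their median width was 6066 bp, and 11 of them held a run. A region of this shape must be wider than the gap in the mark that it spans, so the shape itself favors wide regions. The 221 wholly inside had a median fold of 5.95, and 12 held a run. The 319 regions with the summit inside were defined by the summit in set A replicate 2. The overlapping replicate 1 row also had its summit inside in 254 of them, or 79.6%. The rule required that overlap, and 221 of the 319 lay wholly inside the mark, which left the replicate 1 summit little room elsewhere. Some of the 319 also shared a replicate 1 row with another region. The share is thus a description and not a test of whether summit positions recur. The H3K9me3 replicates differed in how many regions they touched. The replicate 1 list touched 611 of the regions and the replicate 2 list 379, with 327 touched by both, 284 by replicate 1 alone and 52 by replicate 2 alone. The summit lay inside both lists at 143 regions. Rows of set A replicate 1 sometimes spanned several replicate 2 rows, and 212 of the 663 regions, or 32.0%, shared a replicate 1 row with another region, against 19.3% of the other shared regions, so such neighbours are not separate observations in replicate 1.

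**Figure D1:**
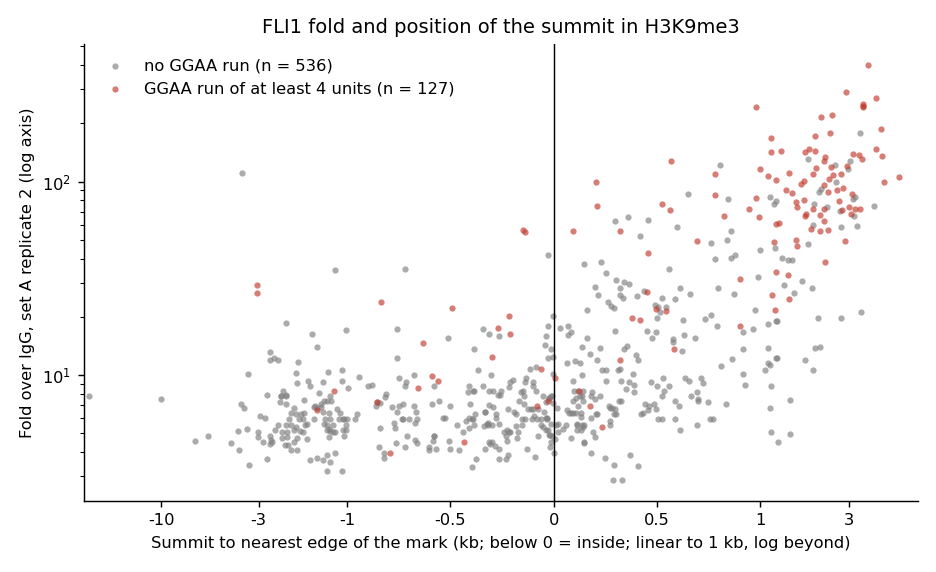
Each point is 1 of the 663 regions, with its fold over IgG in set A replicate 2 (log axis) against the distance of its summit to the nearest edge of the H3K9me3 union in kb, below 0 inside the mark. Red points have a GGAA run of at least 4 units within 250 bp of the summit (n = 127) and gray points do not (n = 536). The 22 red points left of the line and the 105 right of it show where the summits near microsatellites lie, and folds over 100 sit on the right but for 1.

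The strongest regions were microsatellites whose flank reached the mark. The region nearest ARG1, the urea cycle enzyme arginase, lay at chr6:131380076-131389430 in an intron of a non-coding transcript, 87.0 kb from that start. Its folds were 231 and 402 (set A replicates 1 and 2) against 96.7 and 92.8 (set B), and it was the highest of all shared regions in set A replicate 2. The summit, beside 13 GGAA units, was 3782 bp from the mark, of which the region covered 91 bp at 1 end. The region nearest ETV1, itself an ETS factor gene that is fused to EWSR1 in rare Ewing sarcomas, lay at chr7:13846494-13852782, intergenic and 136 kb from the ETV1 start. Its set A folds were 101.6 and 289, against 51.6 and 37.2 in set B, with 12 units within 250 bp of the summit and 434 bp of mark within the region. The CCDC171 intron region, chr9:15880656-15888584, had folds of 221, 251, 66.8 and 47.0 in the same order with 6 units, and 2239 bp of its flank lay in the mark. Those nearest TAS2R16 (a bitter taste receptor), C1orf226 and PDLIM5 (a PDZ and LIM domain protein) had set A replicate 2 folds of 271.9, 247 and 244 and 16, 15 and 11 units. All 6 had the summit outside the mark by 2880 to 4187 bp, all 6 were in both set B lists, and 5 of 6 touched H3K27ac rows of both replicates, the exception being the PDLIM5 region, which touched 1. Contact with the mark rested on 1 H3K9me3 library at some of them. The ARG1 and ETV1 regions were touched only by H3K9me3 replicate 2, and the PDLIM5 region, over 156 bp, only by replicate 1.

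The longest runs lay mostly at regions of this shape. The region nearest MYO10, an unconventional myosin of filopodia, held 32 units, the most of any, at chr5:16936408-16946087, with set A folds of 46.9 and 49.5 against 56.3 and 32.6 in set B. The regions nearest LMLN, PTPN22, MDFIC and SLC35F4 held 18 or 19 units. Their set A replicate 2 folds were 216, 142, 31.2 and 26.8, so the fold did not follow the number of units among these 5. All 5 had the summit outside the mark, by 454 to 2112 bp. Those nearest LMLN, MDFIC and SLC35F4 were touched only by H3K9me3 replicate 1. A region nearest JCAD, with a run of 18 units beside it, went the other way. The run ended just before the start of the region and counted because it came within 250 bp of the summit. It was 726 bp wide at chr10:29928401-29929126, lay wholly inside the mark, touched only by H3K9me3 replicate 1, with its summit 3063 bp from an edge, had set A folds of 27.4 and 26.7, and had no row in either set B list.

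FLI1 regions with a fold of at least 49.1 had H3K9me3 near the summit more often than weaker ones. This was examined over all 1471 shared regions with a run, split into 4 classes of equal size by fold, since the distance from the summit does not depend on the width of the region. A row of the mark lay within 5 kb of the summit at 168 of 368 regions in the highest class (fold of at least 49.1), or 45.7%, and at 21.7%, 18.5% and 28.6% in the others from the lowest up. Distal regions without a run, over 5 kb from a protein-coding start, that reached the same fold had the mark within 5 kb at 83 of 181, or 45.9%, and all distal regions without a run at 24.8%. These shares include the regions that touch the mark, 85 of the 368 and 32 of the 181. Among regions that did not touch it, the mark lay within 5 kb at 29.7% (interval 24.7 to 35.2) of the highest class, at 18.9%, 16.4% and 24.5% (interval 20.3 to 29.3) of the others from the lowest up, and at 34.2% (interval 27.1 to 42.2) of the strong regions without a run, against 22.4% of all distal regions without a run. Without the regions in contact the difference was thus smaller, and the intervals of the top 2 classes overlapped. At the summit itself the mark was rarer than around it: in the highest class, H3K9me3 replicate 1 covered the summit base at 0.543% of regions and replicate 2 at 0 of 368, against 14.8% and 10.2% at 4 kb, the mean of both sides. In the other run regions the covered share was 1.63% and 0.725% at the summit and 3.49% and 1.99% at 4 kb. All distal regions without a run were at 1.56% and 0.935% at the summit and 4.96% and 3.30% at 4 kb. A lower share at the summit was thus not particular to the strong regions. Width entered the choice of members here, since median widths from the lowest to the highest class were 366, 924, 2358 and 5731 bp, and the share that touched the mark was 3.53%, 2.45%, 5.45% and 23.1%.

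**Figure D2:**
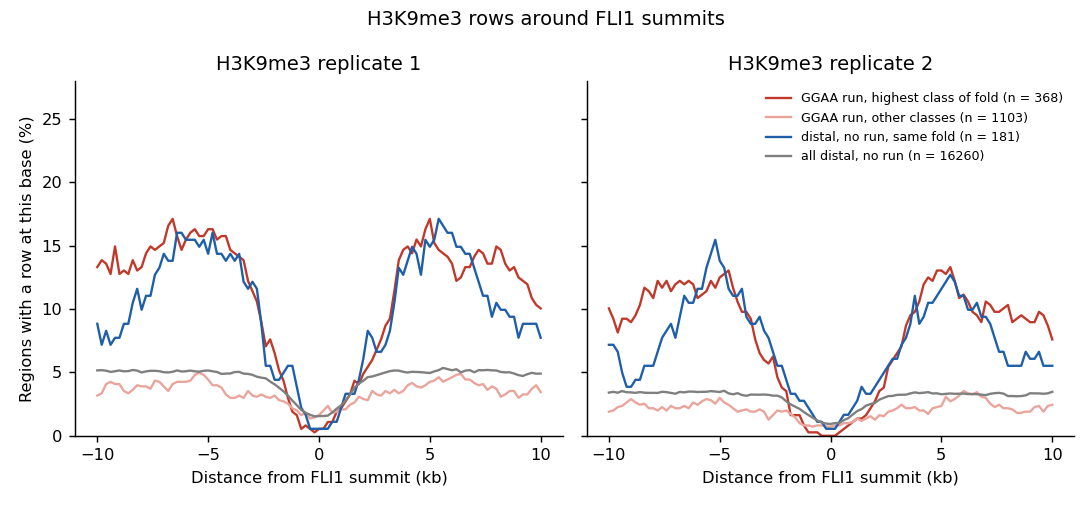
The share of regions (%) with an H3K9me3 row at each base from 10 kb on one side of the FLI1 summit to 10 kb on the other, in replicate 1 (left) and replicate 2 (right). Lines are run regions in the highest class of fold (red, n = 368), other run regions (pink, n = 1103), distal regions without a run at the same fold (blue, n = 181) and all distal regions without a run (gray, n = 16260). All lines are lower at the summit than at 4 kb. Red and blue reach 14.8% and 14.1% at 4 kb in replicate 1, above pink at 3.49%.

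Among run regions of the highest class of fold, the 85 that touched the mark were compared with the 283 that did not. Their median fold was 97.5 against 80.6, their median width 6551 bp against 5502 bp, and the median number of units was 13 in both. H3K27ac of either replicate touched 58 of the 85, or 68.2% (interval 57.7 to 77.2), and 55.8% of the 283 (interval 50.005 to 61.5), and these intervals overlap. Set B held all 85 in each list, and 98.6% and 98.2% of the 283. Of the 283, 84 had the mark within 5 kb without touching it, so the comparison is of contact and not of presence nearby.

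The active mark H3K27ac was found mainly at the wide regions with a distant summit. Rows of either H3K27ac replicate touched 105 of the 663 regions, or 15.8% (interval 13.3 to 18.8), against 21.8% of all shared regions. Rows of both replicates touched 61, or 9.20%, against 9.17% of all. Among distal regions alone the share was 16.4% against 16.3% of the other distal regions. With the summit inside the mark it was 7 of 319, or 2.19% (interval 1.07 to 4.46), and with the summit outside it was 98 of 344, or 28.5% (interval 23.98 to 33.5). Of these 98, 93 were among the 206 wide and strong regions with the summit over 500 bp from the mark (45.1%). Wide regions have more room to touch a row, and the part of width here was not tested. The 138 with the summit outside but within 500 bp were at 5, or 3.62%, close to the inside summits. At the 127 run regions 49.6% touched H3K27ac but the FLI1 summit itself lay in an H3K27ac row at 13.4%. H3K27me3, the Polycomb mark, touched 0 of the 663, which allows a share of up to 0.452%, and 0.423% of all shared regions, so a lower share was not detectable with this number of regions.

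The set B FLI1 lists gave a reading that the choice had not used, although they share set B IgG controls with the H3K9me3 lists. Of the 663 regions, 362 (54.6%, interval 50.8 to 58.4) had a FLI1 row in set B replicate 1, against 69.9% of all shared regions, and 330 (49.8%, interval 46.0 to 53.6) in replicate 2, against 64.2%. Either list held 375, or 56.6%, against 74.3% of all, and both lists held 317, or 47.8%, against 59.9%. The regions with the summit inside the mark were found less: 32.0% (interval 27.1 to 37.3) in replicate 1 and 24.5% (interval 20.1 to 29.5) in replicate 2, against 75.6% and 73.3% with the summit outside. The lowest values were at the 143 regions with the summit inside both H3K9me3 replicates, with 18.9% and 14.0%. The run regions were at 89.8% and 86.6%.

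The shares were also lower at like significance, save among the most significant regions. Shared regions were split into 4 classes of about equal size by the −log10 q of set A replicate 2. In the lowest class 14.0% and 8.54% of the 164 regions in the mark had a row in set B replicates 1 and 2, against 38.0% and 31.1% of other distal regions. In the next class the values were 24.8% and 15.9% against 54.2% and 45.0%, and in the third 57.0% and 54.0% against 72.3% and 63.8%. In the highest class the order turned, with 96.9% and 94.1% against 90.2% and 86.4%. There 217 of 254 regions had the summit outside the mark, and the 37 with it inside were at 83.8% and 75.7%. The regions in the mark were wider than other distal regions in each class (medians of 426 against 344 bp in the lowest and 3392 against 1429 bp in the highest). Among regions no wider than 616 bp, the median of all, 21.0% of 210 in the mark had a row in either set B list, against 61.5% of all.

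**Figure D3:**
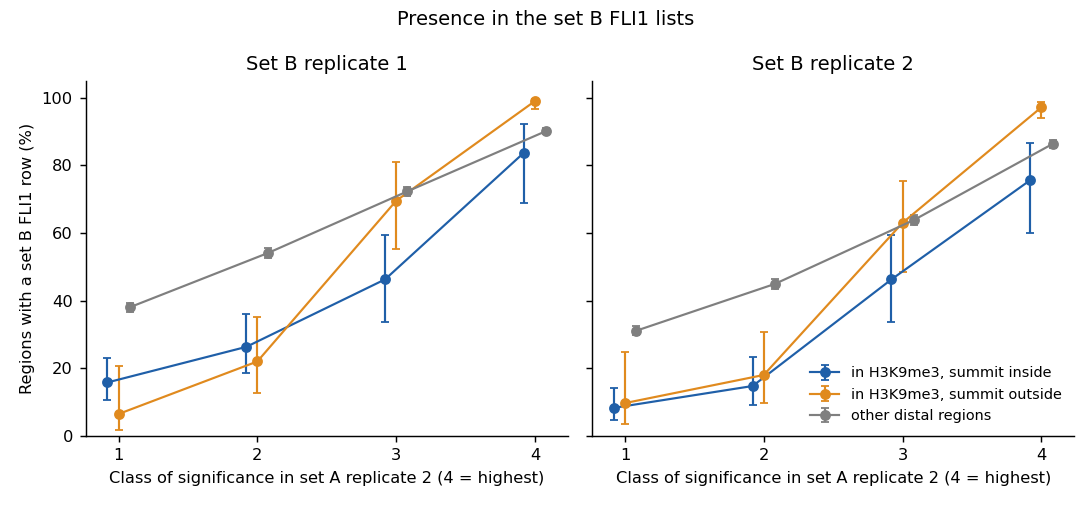
The share (%) of set A regions with a FLI1 row in set B replicate 1 (left) and replicate 2 (right), by class of significance in set A replicate 2. Points are regions in the mark with the summit inside (blue) or outside (orange) and other distal regions (gray), with 95% Wilson intervals as bars. In the lowest class blue is at 15.8% and 8.27% and gray at 38.0% and 31.1%, and in the highest orange is at 99.1% and 97.2%, above gray.

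The position of the set B summit was read at regions that had a set B row. Of the 102 inside regions with a replicate 1 row, that row had its own summit inside the mark at 87, or 85.3%, and of the 78 with a replicate 2 row at 66, or 84.6%. A region wholly inside the mark leaves its set B row little room to lie elsewhere. Among inside regions that were not wholly inside, the set B summit was inside at 33 of 47, or 70.2%, and 26 of 36, or 72.2%. For regions with the summit outside, the set B summit was inside at 9 of 260 and 12 of 252. At run regions the set B rows were narrower, with medians of 2043 and 1878 bp against 4816 bp in set A replicate 2. Of those set B rows, 27.2% and 27.3% touched the mark.

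Many weak regions inside the mark lay beside a strong FLI1 region. Of the 297 inside regions without a run, 140, or 47.1% (interval 41.5 to 52.8), had another shared region with a run within 10 kb, against 10.1% of other distal regions without a run. With a strong neighbour of any sequence, defined by a fold of at least 49.1, the values were 155 of 316, or 49.1% (interval 43.6 to 54.5), against 6.14% of other distal regions below that fold. Absence from set B went with this nearness: among inside regions in no set B list 132 of 211, or 62.6%, were within 10 kb of a strong region, and among those in a set B list 23 of 105, or 21.9%. Other distal regions in no set B list were at 10.4%. Sharing of 1 replicate 1 row with another region was also more frequent in the absent group, at 38.4% against 16.2%, and its part in the pattern was not tested.

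**Figure D4:**
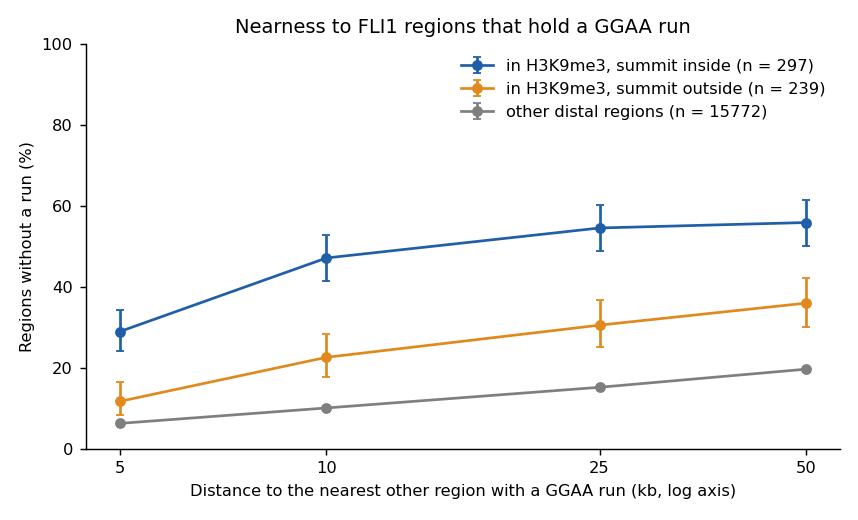
The share (%) of regions without a GGAA run that have another shared region with a run within 5, 10, 25 or 50 kb (log axis), with 95% Wilson intervals as bars. At 10 kb, regions in the mark with the summit inside (blue, n = 297) are at 47.1%, those with the summit outside (orange, n = 239) at 22.6% and other distal regions (gray, n = 15772) at 10.1%.

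The 663 regions fell into 413 groups of summits within 50 kb of the next, of which 286 held a single region and 56 held 3 or more, with 235 regions between them. The largest, with 11 regions over 78123 bp, was nearest HMCN1, which encodes the matrix protein hemicentin. Loci described next were chosen from these groups after their values were seen. Near FN1, the fibronectin gene, 7 regions covered chr2:215532026-215557782. The strongest of them, 7195 bp wide with 11 units within 250 bp of its summit, had set A folds of 119 and 173, against 32.4 and 27.2 in set B. Its summit was 1975 bp outside the mark. The other 6 had set A replicate 2 folds of 4.34 to 9.49, 4 of them with the summit inside, and 1 of the 6 had a row in a set B list, replicate 1. Inside CAV2, a caveolin gene next to the known EWSR1::FLI1 target CAV1, 6 regions covered chr7:116462998-116497826. The strongest, 8850 bp wide with 5 units, had folds of 139, 131, 36.1 and 25.8 in set A replicates 1 and 2 and set B replicates 1 and 2, and the other 5 lay between 4.11 and 6.92 in set A replicate 2. Near KDSR, a sphingolipid enzyme gene known as an EWSR1::FLI1 target, 7 regions covered chr18:63368892-63381379. The strongest, without a run of 4 units near its summit, had folds of 41.2, 62.3, 21.9 and 18.5, and the other 6, of 4.55 to 6.32 in set A replicate 2, were in no set B list. Each of these loci thus held 1 strong region found in all 4 FLI1 libraries and several weak ones. Some of the weak ones shared a replicate 1 row with their neighbour, such as the strongest CAV2 region and the next one, which have 1 replicate 1 row of fold 139 between them.

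Few of the regions with the summit inside the mark in both H3K9me3 replicates recurred in both set B lists. The summit was inside both at 143 regions, and both set B lists had a row at 17 of these. That is a lower share than the 47.8% of the 663 regions and the 59.9% of all shared regions. Of the 17, 15 lay wholly inside the mark. The highest, chr6:168166331-168170693, intergenic and 67.2 kb from the start of FRMD1, had set A folds of 56.1 and 111, set B folds of 41.4 and 28.2, and H3K9me3 folds of 7.76 and 6.67. Its summit was 3692 bp from the nearest edge of the mark and no H3K27ac row touched it. The sequence there, printed above, is a minisatellite and not a GGAA run: a unit of 29 bases, gggacTTCCtgaatacagtcattaagcgg, occurred 13 times exactly within the 4363 bp, and the 31-base stretches around the summit had a median of 12 copies in the genome. Each such unit holds 1 TTCC core, so the cores recur at 29 bp and not at 4 bp. The genome count of 12 includes copies within the region itself. Over the whole region 33.7% of bases equalled the base 29 positions on, so the unit did not recur throughout it.

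The region in an intron of PCSK6, chr15:101333689-101334994, lay 259 bp from a start of this proprotein convertase gene. Its set A folds were 16.3 and 35.5, against 21.2 and 9.16 in set B, it was wholly inside the mark, and it touched no H3K27ac. The region in an APLF intron (a DNA repair factor gene), chr2:68620289-68623789, was the microsatellite printed above under PROKR1, with 13 units and folds of 41.5, 29.1, 18.9 and 16.4 in the same order. Its summit was 3059 bp from an edge of the mark. It touched no H3K27ac row. Other regions with 13 units and the summit outside the mark lay on both sides of its set A replicate 2 fold of 29.1. The region nearest ARG1 was at 402 there and the region nearest GPC6 at 6.92. Whether fold at a given number of units differs with the position of the summit was not tested. The regions nearest FBXO28, LY96 and BCAT1 had set A replicate 2 folds of 18.5, 17.1 and 13.2 and no run. FBXO28 encodes an F-box protein, LY96 the partner of the receptor TLR4, and BCAT1 a branched-chain aminotransferase. The remaining 11 had set A replicate 2 folds of 3.65 to 8.31, and 1 of them, nearest SHQ1, held a run, of 9 units.

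**Figure D5:**
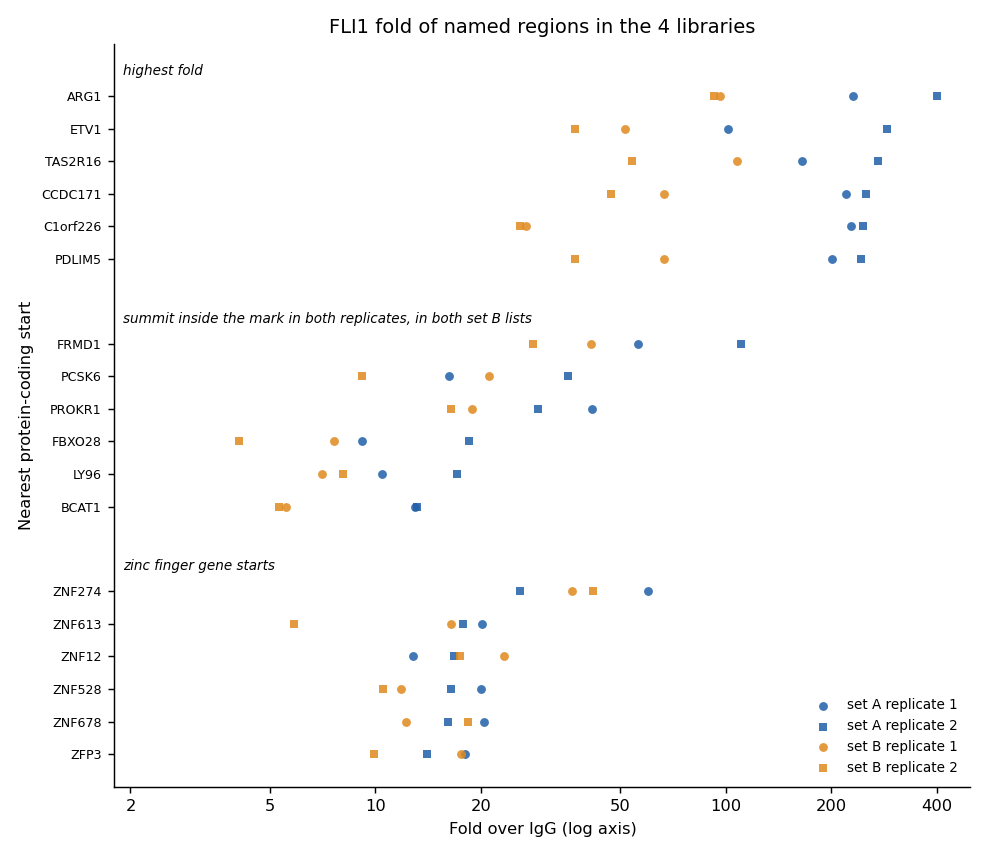
Fold over IgG (log axis) in the 4 FLI1 libraries, 1 point each, with regions named by the nearest protein-coding start. Shown are the 6 regions of highest fold and the 6 highest inside both H3K9me3 replicates and in both set B lists. The last group is the 6 highest at starts of the zinc finger list. The top group lies between 101.6 and 402 in set A, and the zinc finger starts lie between 5.87 and 60.1 in all 4 libraries.

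Gene starts were rare. Only 25 of the 663 summits, or 3.77% (interval 2.57 to 5.51), lay within 1 kb of a protein-coding start, against 28.4% of all shared regions, and 610, or 92.0%, were over 5 kb away, against 61.6%. Of those 25, 14 had a gene of the zinc finger list as the nearest start, or 2.11% of the 663 against 1.15% of all shared regions: ZFP3, ZNF12, ZNF134, ZNF274, ZNF300, ZNF470, ZNF506, ZNF528, ZNF606, ZNF613, ZNF678, ZNF808, ZNF814 and ZNF880. Another 2 regions, nearest ENSG00000269026 and NAA60, had the start of a listed gene (ZNF551 and ZNF597) within 1 kb and another start nearer, and are not counted here. The list was drawn up by gene symbol (ZNF, ZFP, ZKSCAN or ZSCAN) and so leaves out ZIK1, a zinc finger gene whose start also had a region. Taken over nearest starts, 14 of 330 shared regions at listed zinc finger starts touched the mark, or 4.24%. At other protein-coding starts it was 11 of 7796, or 0.141%, the 11 including those 2 regions and the one at ZIK1. On chromosome 19, which holds the main zinc finger gene clusters, it was 10 of 148 zinc finger starts. Zinc finger starts outside the mark were also nearer to it, with a median of 8032 bp against 45181 bp for all starts outside the mark.

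ZNF274 had the highest fold of the 6 zinc finger starts named by rule. Its product is a KRAB zinc finger protein known to recruit SETDB1 to the 3′ ends of other zinc finger genes. The region, chr19:58182379-58183328, had its summit in the UTR 57 bp from a start, with set A folds of 60.1 and 25.8 against 36.4 and 41.9 in set B, and 551 of its 950 bp lay in the mark. The ZNF528 region, chr19:52397311-52398439, lay wholly inside, with folds of 20.1, 16.4, 11.9 and 10.5 in the same order. The regions at ZNF613, ZNF12, ZNF678 and ZFP3 had set A replicate 2 folds of 17.8, 16.7, 16.1 and 14.0, and all 4 had the summit outside the mark by 68 to 139 bp. The ZNF300 region, whose sequence with scattered GGAA cores is printed above, had folds of 13.9, 10.8, 9.95 and 15.5.

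All 14 zinc finger starts had a row in set B replicate 1 and 13 in replicate 2, the exception being ZNF506. None of the 14 touched H3K27ac, which allows a share of up to 21.4%, and 29.7% of zinc finger starts outside the mark did. That limit is above the 15.8% of all 663 regions, so no difference from them is shown. No GGAA run lay near any of the 14 summits, and 7 summits were inside the mark. All 14 were in the H3K9me3 list of replicate 1 but only 2, ZNF274 and ZNF606, in that of replicate 2, so the group rests on 1 H3K9me3 library. The replicate 1 rows there were broad, with a median width of 8560 bp against 2315 bp for the 611 of all regions that touch that list.

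The region at NAA60, an acetyltransferase gene, was named because its summit is within 1 kb of a start of ZNF597, an imprinted zinc finger gene. Its folds were 13.8, 16.7, 12.3 and 9.25, and 35 bp of it lay in the mark. By gene list and all starts, 16 of 566 zinc finger genes (2.83%) had such a summit within 1 kb, against 0.15% of protein-coding genes, and 9 had one in the body, against 0.701%. None of 53 clustered protocadherins, known H3K9me3 targets, and none of 19 genes of the H3K9me3 machinery had one in the body or at a start. Of 416 olfactory receptor genes, which are silent outside the nose, 1 had, OR4E2. Of 20 genes activated by EWSR1::FLI1, 1 had a summit in its body, JAK1, and of 10 repressed genes none. Of the 30 genes listed as imprinted, ZNF597 alone had one. Imprinted genes outside this list were not counted, and a summit lay 7 bp from the start of FAM50B, which is not on it.

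Of the 663 summits, 323, or 48.7%, were intergenic, against 30.6% of all shared regions, and 26.1% lay in introns of protein-coding genes, against 40.5%. The 140 protein-coding genes that held a summit in the body were led by count by CAV2 with 9, MTERF1, a mitochondrial transcription terminator, with 6 and DLG2, a synaptic scaffold, with 5. These genes also held 20, 10 and 26 shared regions outside the mark, in the same order. AADACL4 held 4 in the mark and 0 outside it, so the order by count is not an order by share. The high-affinity ETS motif CCGGAAG, searched on both strands within 100 bp of the summit, was present at 5 of 663, or 0.754%, against 3.46% of all shared regions, where gene starts are more common. At distal regions alone the shares were 0.164% and 1.29% of the others.

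Sequence that recurs in the genome was more common, above all deep in the mark. The median copy number of 5 stretches of 31 bases around the summit was over 1 at 77 regions, or 11.6% (interval 9.39 to 14.3), against 5.22% of all shared regions. It was 14.4% with the summit inside the mark and 21.0% with it inside both H3K9me3 replicates. Over 100 copies were found at 19 of the 663, or 2.87%, against 0.765% of other distal regions. Reads from such stretches can be placed at more than 1 site, and the part of this in the 77 regions was not tested. Runs of the pentamer GGAAT, the unit of pericentromeric satellites, lay near none of the summits. A tandem repeat of at least 24 bp lay within the window at 17.9%, against 5.96% of all, and in 100 of those 119 its unit was AAGG, which is GGAA in another phase.

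The rule has a threshold of 1 bp. The regions just inside it touched the mark by 3, 5 and 6 bp, nearest SLC24A2 (set A folds of 87.4 and 79.2), ZFP3 (18.0 and 14.0) and RGS1 (10.0 and 5.11). Those just outside it missed by 1, 2 and 4 bp, nearest EBNA1BP2 (14.7 and 10.0), KDSR (7.81 and 5.95) and MEIS1 (4.54 and 5.82).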

How the data were processed

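The members and lists were chosen with earlier results of these data known. Per the submitters' processing notes, the tools were cutadapt 4.4, Bowtie2, Picard 2.17.11 and MACS2 2.1.1, with hg38 and GRCh38 as builds. The authors deposited 10 lists, 1 per antibody library, named for the IgG control of the same set and number. Per the file headers and names no read totals are given, so depth is unknown. Column 7 is the deposited fold, a ratio over IgG, and the deposited −log10 p and −log10 q values follow, with a lowest −log10 q of 2. The deposited score is 10 times the −log10 q and was not used. The lists gave FLI1 35210, 40590, 38221 and 29339 rows, H3K27ac 13974 and 23368, H3K9me3 36687 and 21770, and H3K27me3 21461 and 16667, on the 22 autosomes and X. All rows lay within hg38 chromosomes.

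Genes came from GENCODE release 44. The hg38 copy used had no repeat annotation, so repeats were read from 31-base copies and tandem units of 2 to 6 bases. A list of other marks counted as present with at least 1 shared bp. Named regions were, by rule, the 6 of highest fold, the 6 highest inside both H3K9me3 replicates and in both set B lists, the 5 longest runs with all regions tied for the last place (6), the 6 highest zinc finger starts, starts of other listed genes and the 3 regions on each side of the threshold. Overlap, run and copy counters were tested on simulated data and were right in 500 of 500, 200 of 200 and 40 of 40 cases. Python 3.11.15 with numpy 2.4.6, pandas 2.3.3, scipy 1.17.1, numba 0.67.0 and matplotlib 3.10.9 was used. The alternatives covered overlap, significance, width, windows and leaving out libraries.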

Additional observations from a re-analysis of the deposited data

How the results depend on the processing

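No paired analysis was possible because the results come from no test. Of the values under alternatives, 66 stayed within their limits and 46 moved. The main values were 663 regions, 56.6% in set B, 48.1% with the summit inside, 19.2% with a run, 3.77% at starts, 15.8% with H3K27ac, 11.6% of repeat sequence and 1.36% with the summit in a zinc finger gene body. Leaving out 1 library gave 379 to 1016 regions, 40.3% to 56.0% in set B, 44.9% to 59.2% inside, 13.1% to 19.3% with a run, 1.06% to 4.95% at starts, 10.6% to 16.9% with H3K27ac and 0.528% to 1.95% in zinc finger genes. Without H3K9me3 replicate 1 the starts fell to 1.06%, and without FLI1 set A replicate 1 the count was 1016.

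With the mark in both replicates there were 327 regions, 50.8% in set B, 43.7% inside, 1.22% at starts and 0.612% in zinc finger genes. With at least 50% of the region in the mark there were 299, 31.8% in set B, 95.3% inside, 6.35% with a run and 2.01% with H3K27ac. With −log10 q of at least 5 in the set A FLI1 and the H3K9me3 rows there were 190, 64.7% in set B and 20% with H3K27ac. With 50% reciprocal overlap in set A there were 434, 71.4% in set B against 80.5% of all, 38.5% inside, 25.8% with a run and 22.1% with H3K27ac. Both set B lists held 47.8%, and 50% reciprocal overlap with set B left 20.1% against 43.6% of all. A run anywhere in the region gave 24.1%, starts within 5 kb 7.99%, starts of all gene types 7.24% and both H3K27ac lists 9.20%. Beyond 5 kb from a start, 0.0% of regions lay in zinc finger genes.

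An alternative chosen after seeing the data kept the 210 regions no wider than 616 bp, the median of all. There 21.0% were in set B against 61.5% of all, 80.0% had the summit inside, 6.19% a run, 5.71% a start, 0.476% H3K27ac and 15.7% repeat sequence. The cause of these shifts was not tested. The number of reads behind each row is unknown, which limits what absence from a list shows.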
